A study of Mus musculus with 4 samples.

Results

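Fibroblasts are the connective tissue cells that make and remodel the collagen-rich matrix between the lobules, ducts and vessels of the pancreas. They were described here in mice with caerulein-induced pancreatitis, as the cells of the deposited counts that carry fibroblast genes and stand outside the authors' table of EYFP-positive cells. A cell was taken as a fibroblast when it lay outside that table, held at least 1 UMI (unique molecular identifier, 1 counted mRNA molecule) of 3 or more of the 5 genes Col1a1, Col1a2, Col3a1, Dcn and Lum, and had no more than 1 of the mesothelial genes Msln, Upk3b and Lrrn4. The rule found 764 fibroblasts among 7778 cells outside the EYFP-positive table and 21140 cells in all.

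All 4 mice carried Ptf1aCre-ERTM and ROSAYFP/+, were backcrossed into CD-1 and were 10 weeks old when injury began. Ptf1a drives the tamoxifen-dependent Cre in acinar cells, which switches on EYFP in those cells and their descendants. All mice received tamoxifen and then repeated caerulein injections, 2 mice for 2 weeks and 2 other mice for 4 weeks. No untreated mouse is among the samples, so the values describe injured tissue and not a change from healthy pancreas. Cells had been sorted for EYFP before 10x Genomics 3′ capture, and the fibroblasts are therefore cells that came through that sort without entering the EYFP-positive table. Their numbers do not measure how abundant fibroblasts were in the tissue.

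As background, fibroblasts of an injured organ are commonly described by 3 kinds of gene. Matrix genes encode collagens, proteoglycans and the enzymes that assemble or cut them. Inflammatory genes encode complement proteins, cytokines and chemokines. Contractile genes, with smooth muscle actin (Acta2) as the usual marker, define myofibroblasts, the state that transforming growth factor beta (TGF-beta) promotes. In many organs fibroblasts expressing Pi16, Dpp4 and Ly6c1 lie around vessels and ducts (adventitial fibroblasts), and stellate cells are the pancreatic fibroblasts known for storing vitamin A.

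The 4 mice gave 186 and 308 fibroblasts at 2 weeks and 148 and 122 at 4 weeks. Summed per mouse, these held 1458494 and 2788009 UMIs at 2 weeks and 961257 and 894186 at 4 weeks, with a median of 7913.5 and 8343.5 UMIs per cell at 2 weeks and of 6087.5 and 6625 at 4 weeks. Levels below are CPM, the UMIs of a gene as counts per 1000000 UMIs of that mouse's fibroblasts, listed as 2-week mouse 1, 2-week mouse 2, 4-week mouse 1 and 4-week mouse 2. Counting molecules at the 3′ end does not favour long genes, so levels of different genes are compared without a length correction. Of fibroblast barcodes, 2 also occurred among fibroblasts of another mouse and 3 among any cells of another mouse. 4-week mouse 2 differed from the others in sex-linked genes: it had 0 UMIs of Xist, which allows up to 3.36 CPM, and 63.7 CPM of the Y-linked gene Ddx3y, while Xist lay between 645 and 824 CPM and Ddx3y at 0 UMIs in the other 3 mice. The labels used here give no sex.

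Fibroblasts made up 10.7% of the cells outside the EYFP-positive table in 2-week mouse 1 (95% exact Clopper-Pearson interval 9.32 to 12.3%) and 18.4% in 2-week mouse 2 (16.5 to 20.3%). They made up 7.09% in 4-week mouse 1 (6.02 to 8.27%) and 5.35% in 4-week mouse 2 (4.46 to 6.35%). Both 4-week mice were below both 2-week mice, and the mean was lower by 8.33 percentage points (-8.33, two-sided exact permutation test, p = 0.333, the smallest p that 2 against 2 mice allow). The intervals cover counting error only, and the denominator depends on what passed the sort.

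**Figure D1:**
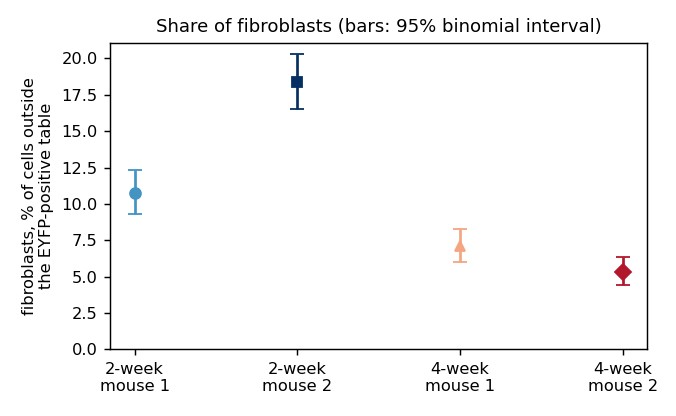
Share of fibroblasts among the cells outside the EYFP-positive table, in percent, in each of the 4 mice; bars are 95% exact binomial intervals. The 2-week mice sit at 10.7% and 18.4%, above the 4-week mice at 7.09% and 5.35%.

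Of the 10 fibroblast markers, 5 are the genes of the rule; the 5 that the rule did not use (Pdgfra, Dpt, Mfap5, Pi16 and Clec3b) had UMIs in every mouse. Pdgfra, the platelet-derived growth factor receptor that marks fibroblasts in most organs, had a UMI in 71.1% of the cells, against 0.181% of B cells, which served as cells that should lack it. Pi16 had one in 73.8% (B cells 0.181%) and Dpt, which encodes the matrix protein dermatopontin, in 56.8% (B cells 0.361%), at a median depth of 7327.5 UMIs in fibroblasts and 3382.5 in B cells. Ranked by the ratio of their level to that in the other cells outside the EYFP-positive table, the leading 20 genes were Svep1, Lrrc17, Sult1e1, Dpep1, Sfrp4, Cilp, Lum, Mfap4, Fbln7, Ms4a4d, Thbs4, Spon2, Scara5, Gdf10, Pdgfra, Dpt, Prrx2, Fbn1, Abca8a and Tcf21. Most encode matrix proteins or modulators of Wnt and growth factor signalling, and Tcf21 and Prrx2 encode mesenchymal transcription factors. This ranking is a description, since the cells were chosen on genes measured in the same counts. Sult1e1, an estrogen sulfotransferase, owed its place to 1 animal, with 217 CPM in 4-week mouse 2 and at most 2.08 CPM in the other 3.

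Most cells carried every gene of the rule. All 5 genes were found in 645 cells with a median of 256 UMIs of them, 4 genes in 45 cells with a median of 17, and 3 genes in 74 cells with a median of 6.5. Just outside, 141 cells had 2 of the genes, with a median of 2 UMIs, and 96 cells were left out for 2 or 3 mesothelial genes. Among defining markers of other types, Sox10 and Cdh19 (Schwann cells), the mucin gene Muc5ac, and Adipoq, Plin1 and Cidec (adipocytes) had 0 UMIs in the fibroblasts of all 4 mice. Yet 3 of 5 Schwann markers had UMIs in every mouse, and the 5 summed to 13.0, 13.3, 19.8 and 8.95 CPM. Of the mucin/ductal markers, 5 of 6 had UMIs in every mouse, and the 6 summed to 551, 836, 2408 and 2542 CPM. Acinar RNA was present in every mouse: 6 of 6 acinar markers had UMIs, summing to 17312 and 10425 CPM at 2 weeks and 5936 and 34396 CPM at 4 weeks. The trypsinogen gene Prss2 had a UMI in 92.9% of fibroblasts and in 90.3% of B cells, so its detection is read as background and not as expression. EYFP had a UMI in 7.33% of fibroblasts and in 7.04% of B cells.

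The levels of the rule genes are given as a description, since the cells were chosen to carry them. The most abundant matrix transcript was Dcn, which encodes decorin, a small proteoglycan that binds collagen fibrils, at 12232, 11358, 15181 and 13956 CPM. Col3a1, the fibrillar collagen of loose connective tissue, stood at 10217, 8600.4, 6573 and 7311 CPM, and the chains of type I collagen at 3992, 4304, 2835 and 3512 CPM for Col1a1 and 5466, 5407, 4412 and 5041 CPM for Col1a2. Sparc, a collagen-binding matricellular protein, reached 7448, 6992, 5362 and 8863 CPM. The rule did not use Sparc or the genes that follow. Fn1 (fibronectin) stood at 1817, 1206, 2154 and 2153 CPM, Mgp (matrix Gla protein, an inhibitor of calcification) at 5456, 3949, 5367 and 3302 CPM, and Mfap5, a microfibril protein of elastic fibres, at 2035, 1154, 2215 and 1940.3 CPM.

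Between time points, no gene passed the test. edgeR's quasi-likelihood test on the summed counts covered 9502 genes and called 0 (0.0%) at an adjusted p under 0.05, with 450 at an unadjusted p under 0.05 (4.74%, of which 237 were higher at 4 weeks, 2.49%, and 213 lower, 2.24%). DESeq2 called 5 genes, with Tff2, Pga5 and Il12b higher at 4 weeks and Reg2 and Ccl8 lower; Il12b and Reg2 are named only because it called them. Ccl8 was mainly carried by sub-cluster 4, 30 cells led by macrophage genes. It stood there at 1394 CPM, against 12.0 and 6.86 CPM in the 2 largest sub-clusters. Reg2 was also lower in both 4-week mice in mesothelial cells, endothelial cells, macrophages, T cells and B cells. In B cells it stood at 252 and 175 CPM at 2 weeks and 102 and 154 CPM at 4 weeks. Without 2-week mouse 1 edgeR called 127 genes and without 2-week mouse 2 it called 144, fits in which the lone 2-week mouse is assumed to vary like the others. In 13.2% of the tested genes both 4-week mice were above both 2-week mice in CPM, and in 21.6% both were below, so that 34.8% showed no overlap. Counts for the gene lists below are to be read against these shares. A change that missed the test is not shown to be absent. Fold changes are log2 of 4 weeks over 2 weeks with the standard error of the fit, and the median over all tested genes was -0.01. The 50 genes given below with a fold change were chosen from these same mice by small p or no overlap. How many of them pass with 1 mouse left out is therefore not read as a result about them.

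The mice also differed in the make-up of their fibroblasts. Clustering gave 6 sub-clusters, described further on, and the 2 largest were filled differently. Sub-cluster 0 held 19 of 186 and 66 of 308 fibroblasts at 2 weeks and 58 of 148 and 46 of 122 at 4 weeks. Sub-cluster 1 held 28 of 186 and 174 of 308 at 2 weeks and 65 of 148 and 25 of 122 at 4 weeks, with the highest share in 2-week mouse 2. Of the 50 genes, 16 of the 25 with a value above 0 had a higher level in sub-cluster 0 than in sub-cluster 1. Of the 25 with a value below 0, 19 had a higher level in sub-cluster 1. These levels pool the mice, and 2-week mouse 2 gave 174 of the 292 cells of sub-cluster 1. The levels are therefore not independent of the time points. The same counts were not made over all tested genes, so nothing is read from them. The part of this make-up in the differences between time points was not tested.

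Of the fibrillar collagens that the rule did not use, 3 were tested, and 2 were lower in both 4-week mice, with 0 at an unadjusted p under 0.05. Both encode chains of type V collagen, which initiates collagen fibrils: Col5a1 stood at 443, 429, 329.8 and 316 CPM (-0.37 ± 0.18, edgeR, adjusted p = 0.984) and Col5a2 at 671, 608, 485 and 481 CPM (-0.34 ± 0.19, adjusted p = 0.984). Col5a3 overlapped between time points. Of the 9 basement membrane and sheet-forming collagens, 2 were at an unadjusted p under 0.05, both lower at 4 weeks, and both encode chains of type VI collagen, the beaded-filament collagen around cells. Col6a3 stood at 359, 319.6, 242 and 152 CPM (-0.74 ± 0.22) and Col6a2 at 1031, 817, 713 and 520.0 CPM (-0.54 ± 0.22). The type IV chains of basement membrane overlapped between time points, with Col4a1 at 573, 519, 569 and 404 CPM.

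Small leucine-rich proteoglycans, which organise collagen fibrils, had a median of 0.33 over the 7 genes that the rule did not use, which became -0.05 without 4-week mouse 2. Prelp, which anchors basement membranes to collagen, was the only one higher in both 4-week mice and the only one at an unadjusted p under 0.05, at 128, 108, 189 and 179 CPM (0.70 ± 0.18, adjusted p = 0.984). Among 26 matrix glycoproteins, 2 were higher and 4 lower at an unadjusted p under 0.05. Those higher were Fbln5, an elastic-fibre assembly protein (204, 235, 317 and 308 CPM; 0.57 ± 0.17), and Tnxb, the tenascin of loose connective tissue (607, 448, 757 and 738 CPM; 0.56 ± 0.22). Those lower were Eln, the elastin gene (496, 462, 379 and 262 CPM; -0.53 ± 0.20), Postn, which encodes periostin (744, 775, 528 and 509 CPM; -0.49 ± 0.18), the basement membrane linker Nid2 (-0.93 ± 0.32) and the secreted matrix protein Spon1 (-0.61 ± 0.21). The adjusted p of these 6 genes was 0.984. Eln and its assembly protein Fbln5 therefore stood on opposite sides of 0. In sub-clusters 0 and 1, Fbln5 stood at 491 and 145 CPM and Tnxb at 1177 and 200.4 CPM. Spon1 stood at 102 and 408 CPM there and Nid2 at 9.13 and 54.1 CPM. Eln (587 and 346 CPM) and Postn (845 and 741 CPM) were higher in sub-cluster 0, although both were lower at 4 weeks.

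Genes that process collagen after translation had no member at an unadjusted p under 0.05 among 16 tested, although 6 were lower in both 4-week mice and none higher in both. Serpinh1, the collagen chaperone of the endoplasmic reticulum, stood at 1344, 1077, 974 and 887 CPM, and the cross-linking enzyme gene Loxl1 at 535, 493, 434 and 387 CPM. Of 18 proteases and inhibitors, Adamts5, an enzyme that cuts aggrecan and versican, was the only one at an unadjusted p under 0.05, at 476, 307, 744 and 546 CPM (0.77 ± 0.27, adjusted p = 0.984). Mmp2, the gelatinase gene typical of fibroblasts, overlapped at 1017, 1159, 1194 and 928 CPM. Timp2, which encodes an inhibitor of such enzymes, was lowest in 2-week mouse 2, at 1768, 809, 2115 and 1930.2 CPM.

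**Figure D2:**
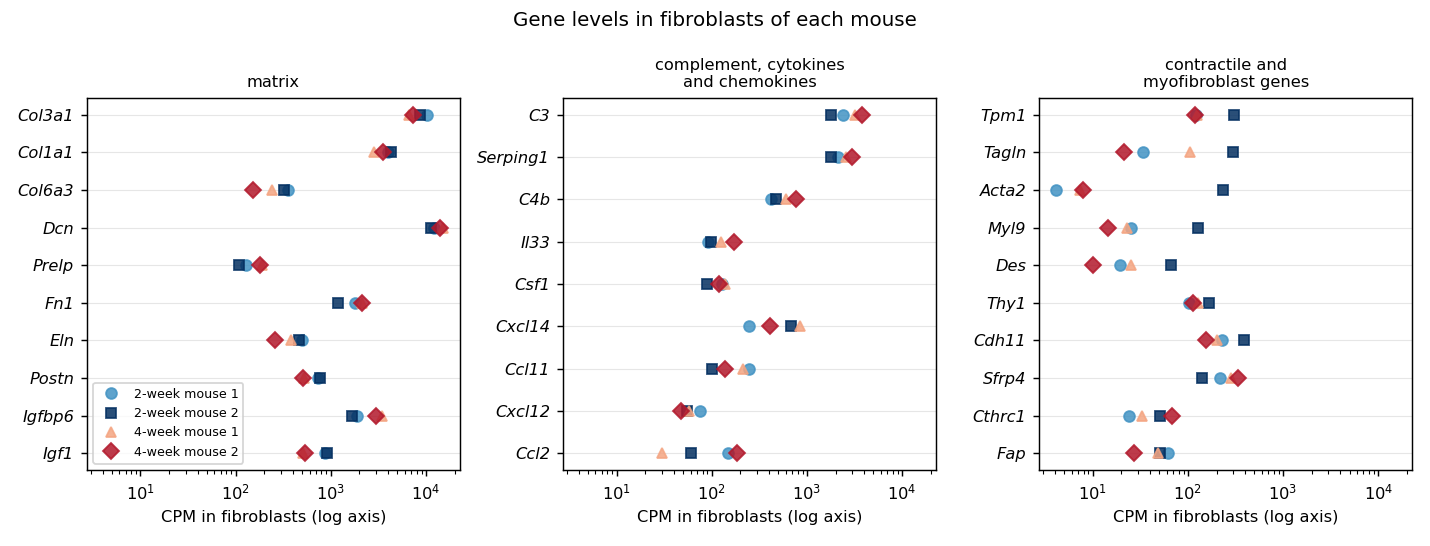
Levels of matrix, inflammatory and contractile or myofibroblast genes in the fibroblasts of each of the 4 mice, in CPM on a log axis; each point is 1 mouse. C3 spans 1782 to 3777 CPM across the mice, while Acta2, Tagln, Myl9 and Des stand apart in 2-week mouse 2 (Acta2 233 CPM against 4.11 to 7.83 CPM in the others).

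Complement and acute phase genes were the inflammatory group with the most members above both 2-week mice at 4 weeks. Of 13 tested, 8 were higher in both 4-week mice and 1 lower, 5 of them at an unadjusted p under 0.05, and the median log2 fold change was 0.58. The list summed to 6823 and 5455 CPM at 2 weeks and 8662 and 10362 CPM at 4 weeks. C3, the central complement component, stood at 2418, 1782, 3197 and 3777 CPM (0.80 ± 0.26, edgeR, adjusted p = 0.984). Its close relative C4b stood at 418, 475, 602 and 771 CPM (0.69 ± 0.23), the classical pathway protease C1s1 at 581, 433, 765 and 692 CPM (0.58 ± 0.22) and Serping1, the inhibitor of that protease, at 2119, 1791, 2551 and 2981 CPM (0.57 ± 0.23). Below 0 were 3 of the 13 genes, the acute phase gene Saa3 and the hyaluronan-related genes Has1 and Tnfaip6, and Tnfaip6 was lower in both 4-week mice (39.1, 32.6, 17.7 and 26.8 CPM). Complement and acute phase genes summed to 11900 CPM in sub-cluster 0 and to 4464 CPM in sub-cluster 1. Within sub-cluster 0 C3 stood at 4893, 4561, 5687 and 6803 CPM, higher in both 4-week mice, and within sub-cluster 1 at 868, 587, 599 and 1451 CPM, where the time points overlapped. C3 was not particular to fibroblasts: it had a UMI in 73.7% of them and in 99.1% of mesothelial cells. Cfb, which encodes the alternative-pathway protease factor B, differed mainly between single mice, at 222, 49.9, 249.7 and 782 CPM.

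Of 16 cytokine genes listed, 8 passed the low-count filter, and 2 were higher at an unadjusted p under 0.05. The list summed to a mean of 766 CPM over the mice in fibroblasts. The next highest of the named classes was mesothelial cells, at 567 CPM. Il33, an alarmin, stood at 91.9, 97.9, 126 and 170.0 CPM (0.71 ± 0.23, adjusted p = 0.984), with a UMI in 38.7% of fibroblasts against 0.181% of B cells. Tslp, which encodes an epithelial-type cytokine that acts on dendritic cells, stood at 12.3, 10.8, 40.6 and 13.4 CPM (1.28 ± 0.48, adjusted p = 0.984). Its higher value came from 4-week mouse 1, and 4-week mouse 2 was close to the 2-week mice. Il6, the cytokine by which inflammatory fibroblasts are often defined, had a UMI in 8 of 764 cells (1.05%), with 0 of 148 in 4-week mouse 1, which allows up to 2.03% of cells with a UMI. Csf1, the growth factor of macrophages, overlapped at 128, 89.7, 136 and 119 CPM.

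Among chemokine genes, some overlapped between time points and others were high in 1 mouse. Cxcl12, which retains leukocytes and progenitor cells, stood at 74.7, 55.6, 58.3 and 47.0 CPM, and Cxcl14 at 245, 685, 847 and 405 CPM. Ccl11, which attracts eosinophils, stood at 245, 102, 212 and 138 CPM. The time points overlapped for these 3 genes. Of 11 tested, only Ccl5 was at an unadjusted p under 0.05, at 36.3, 25.8, 57.2 and 47.0 CPM (0.82 ± 0.25, adjusted p = 0.984). It had a UMI in 14 of 764 fibroblasts (1.83%) and in 0.542% of B cells. Its level was 337 CPM in sub-cluster 4, led by macrophage genes, against 23.4 and 31.3 CPM in sub-clusters 0 and 1. In sub-cluster 0 all its UMIs (41) came from 4-week mouse 2, and 0.529% of the cells had any. In sub-cluster 1, 2-week mouse 2 gave 72 UMIs, and 0.685% of the cells had any. The Ccl5 values of these mice thus rest on very few cells. Ccl8 stood at 266, 38.4, 7.28 and 12.3 CPM, Ccl7 at 134, 8.61, 18.7 and 10.1 CPM and Cxcl9 at 845, 27.3, 14.6 and 13.4 CPM. These last 3 were all highest in 2-week mouse 1. Ccl8 stood at 1394 CPM in sub-cluster 4 against 12.0 and 6.86 CPM in sub-clusters 0 and 1, and at 528 to 1813 CPM in macrophages. Ccl7 and Cxcl9 stood highest in sub-cluster 3 (273 and 1372 CPM), nearly all from 2-week mouse 1, and next in sub-cluster 4 (68.2 and 910.2 CPM). Cxcl1, which attracts neutrophils, did not pass the low-count filter and stood at 13.0, 6.46, 1.04 and 0 CPM. Of 9 targets of the inflammatory transcription factor NF-kB, 0 were at an unadjusted p under 0.05, and the inhibitor gene Nfkbia stood at 107, 106, 176 and 66.0 CPM.

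Contractile genes stood apart in 1 mouse. Acta2 was at 4.11, 233, 7.28 and 7.83 CPM, with a UMI in 12.0% of the fibroblasts of 2-week mouse 2 and in 3.23%, 3.38% and 3.28% of those of the other mice, against 0 of 554 B cells, which allows up to 0.542%. Tagln (transgelin, an actin-binding protein) stood at 33.6, 299, 104 and 21.2 CPM, Myl9 (a myosin light chain) at 25.4, 128, 22.9 and 14.5 CPM and Tpm2 (a tropomyosin) at 69.9, 221, 107 and 62.6 CPM. In all 4 genes the highest value was in 2-week mouse 2, and 2-week mouse 1 lay near the 4-week mice. Of 10 contractile genes tested, 0 were at an unadjusted p under 0.05, and their median log2 fold change was -0.58, which became 0.11 without 2-week mouse 2. Pericyte markers moved with these genes, summing to 35.7 and 574 CPM at 2 weeks and 75.9 and 28.0 CPM at 4 weeks, with 4 of 6 markers found in every mouse. So did smooth muscle markers, summing to 19.9 and 125 CPM at 2 weeks and 27.0 and 10.1 CPM at 4 weeks, with 1 of 5 markers found in every mouse. The part of pericytes and smooth muscle cells in the level of contractile genes was not tested. Within the largest group of similar cells, sub-cluster 1, Acta2 stood at 357 CPM in 2-week mouse 2 against 4.19, 16.8 and 22.4 CPM in the others. Pooled over mice, 10.6% of the cells of sub-cluster 1 had an Acta2 UMI. In the same sub-cluster the pericyte gene Rgs5 stood at 1.29 CPM and the smooth muscle genes Myh11, Actg2 and Cnn1 at 24.0, 17.6 and 9.87 CPM, with UMIs in 1.03%, 0.685% and 0.342% of its cells. All UMIs of these 3 smooth muscle genes in sub-cluster 1 came from 2-week mouse 2 (37.0, 27.1 and 15.2 CPM), where Acta2 was high. The levels of these 3 genes thus rest on very few cells.

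Genes of activated myofibroblasts other than contractile ones gave no common direction. Of 14 tested, 2 were higher and 3 lower at an unadjusted p under 0.05. Sfrp4, which encodes a secreted Wnt antagonist, stood at 215, 139.9, 281 and 337 CPM (0.87 ± 0.28), and Ddr2, a collagen receptor, at 189, 152, 246 and 212 CPM (0.48 ± 0.19). Those lower were Postn, the adhesion gene Cdh11 (226, 387, 199.7 and 157 CPM; -0.73 ± 0.27) and Ncam1 (143, 161, 114 and 88.3 CPM; -0.53 ± 0.17). Each of the 5 had an adjusted p of 0.984 (edgeR). In sub-clusters 0 and 1, Sfrp4 stood at 488 and 21.5 CPM and Ddr2 at 336 and 109 CPM. Cdh11 stood at 121 and 528 CPM there and Ncam1 at 50.8 and 246 CPM. Postn, also among the lower genes, was instead higher in sub-cluster 0, at 845 CPM against 741 CPM in sub-cluster 1. Fap, a surface protease of activated fibroblasts, stood at 61.7, 50.6, 48.9 and 26.8 CPM, and Cthrc1, which marks matrix-producing fibroblasts in scarring organs, at 24.0, 51.3, 33.3 and 68.2 CPM with a UMI in 16.2% of cells (B cells 0.542%). Lrrc15, a marker of TGF-beta-driven fibroblasts in tumours, had a UMI in 9 of 764 cells.

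**Figure D3:**
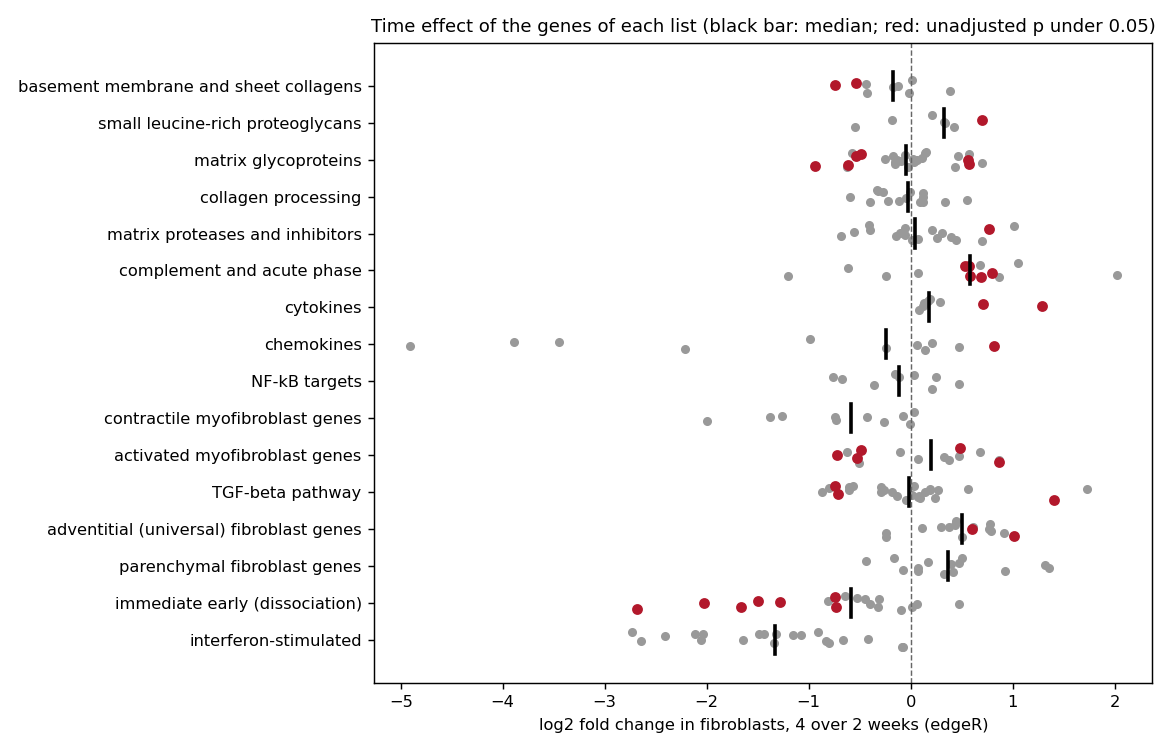
Log2 fold change of 4 over 2 weeks in fibroblasts for each tested gene of 16 lists; each point is a gene, black bars are list medians, and red points have an unadjusted edgeR p under 0.05. Complement and adventitial genes lie mostly to the right of 0 (medians 0.58 and 0.50), immediate early and interferon-stimulated genes mostly to the left (medians -0.59 and -1.33), and 0 genes passed after adjustment.

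In the TGF-beta pathway, 1 of 26 genes was higher and 2 were lower at an unadjusted p under 0.05. All 3 encode members of the latent-TGF-beta-binding protein family or a decoy receptor. The ligand gene Tgfb1 stood at 49.4, 53.8, 30.2 and 50.3 CPM and the receptor gene Tgfbr2 at 347, 393, 490.0 and 248 CPM. Ltbp2, which encodes an elastic-fibre protein of that family, stood at 14.4, 21.2, 47.9 and 44.7 CPM (1.41 ± 0.26, adjusted p = 0.809). Its relative Ltbp1, which tethers latent TGF-beta in the matrix, stood at 96.7, 122, 75.9 and 50.3 CPM (-0.74 ± 0.22), and the decoy receptor gene Bambi at 34.3, 49.1, 29.1 and 20.1 CPM (-0.71 ± 0.27). Ltbp1 and Ltbp2 lay on opposite sides of 0, each with no overlap between time points. Ccn2, a TGF-beta target that encodes a matricellular protein, stood at 91.2, 81.4, 139 and 394 CPM, with the highest value in 4-week mouse 2.

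Among 22 growth factors, receptors and binding proteins, 2 were higher and 3 lower at an unadjusted p under 0.05. Igfbp6, whose product binds insulin-like growth factor II, stood at 1873, 1676, 3466 and 2969 CPM (0.91 ± 0.20, edgeR, adjusted p = 0.984). Igf1 stood at 864, 904, 512 and 533 CPM (-0.69 ± 0.19, adjusted p = 0.984) and Igfbp3, the main carrier of that factor, at 121, 260.0, 85.3 and 63.7 CPM (-1.30 ± 0.39, adjusted p = 0.984). The 2-week mice agreed closely in Igf1, as did the 4-week mice. Pdgfa, a ligand of the receptor Pdgfra, was lower at 4 weeks in both mice (-0.82 ± 0.30) and Gdf10, a ligand of the TGF-beta superfamily, higher in both (0.55 ± 0.21).

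Among Wnt, BMP and Hedgehog genes, 2 of 23 were higher and 1 lower at an unadjusted p under 0.05. The Wnt ligand gene Wnt4 stood at 63.8, 126, 18.7 and 28.0 CPM (-1.97 ± 0.43, adjusted p = 0.984). Rspo1, an enhancer of Wnt signalling, stood at 43.2, 40.9, 65.5 and 77.2 CPM (0.83 ± 0.21) and the ligand gene Bmp4 at 32.9, 29.1, 55.1 and 44.7 CPM (0.75 ± 0.21). Of 34 mesenchymal transcription factors, Zeb2 was the only one at an unadjusted p under 0.05 (240.0, 244, 186 and 147 CPM; -0.49 ± 0.17). Wt1, shared by mesothelium and some visceral fibroblasts, had a UMI in 31.2% of fibroblasts and in 72.5% of mesothelial cells.

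Adventitial fibroblast genes were lowest in 2-week mouse 2, the mouse with the highest share of cells in sub-cluster 1, where they summed to 4660 CPM against 16653 CPM in sub-cluster 0. The 15 genes summed to 15210 and 5759 CPM at 2 weeks and 12589 CPM in each 4-week mouse. Pi16 stood at 854, 459, 1129.8 and 1401 CPM (1.01 ± 0.36, adjusted p = 0.984) and Clec3b, which encodes tetranectin, at 2313, 1574, 2989.8 and 2702 CPM (0.60 ± 0.25, adjusted p = 0.984). These were the 2 genes of the list at an unadjusted p under 0.05, and Clec3b stood at 4272 CPM in sub-cluster 0 and 899 CPM in sub-cluster 1. Ly6c1 stood at 1015, 141, 556 and 805 CPM and Ly6a at 5565, 632, 2212 and 2833 CPM. In both, 2-week mouse 1 was the highest and 2-week mouse 2 the lowest. Sub-cluster 3, led by interferon-stimulated genes, had 65 of its 68 cells from 2-week mouse 1. Ly6c1 and Ly6a stood at 1775 and 9086.5 CPM there, against 834 and 3162 CPM in sub-cluster 0. The median log2 fold change of the list was 0.50, which was 1.39 without 2-week mouse 1 and 0.05 without 2-week mouse 2. Of the genes common to pancreatic stellate cells, 8 were tested, and only Hand2 was at an unadjusted p under 0.05 (-0.63 ± 0.25). Proliferation genes were scarce, with a Mki67 UMI in 13 of 764 cells (1.70%) against 4.15% of B cells.

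Immediate early and heat shock genes, which tissue dissociation is known to induce, were lower at 4 weeks in both mice for 9 of 18 genes, 7 of them at an unadjusted p under 0.05. Fos stood at 393, 773, 281 and 122 CPM (-1.50 ± 0.51, adjusted p = 0.984), Jun at 645, 832, 478 and 370.2 CPM (-0.75 ± 0.21), Atf3 at 53.5, 28.0, 6.24 and 5.59 CPM (-2.68 ± 0.48, adjusted p = 0.809) and Hspa1a at 30.9, 50.6, 10.4 and 8.95 CPM (-2.02 ± 0.35, adjusted p = 0.809). The list summed to 3736 and 5487 CPM at 2 weeks and 3321 and 2473 CPM at 4 weeks. It summed to 2262 CPM in sub-cluster 0 and to 6369 CPM in sub-cluster 1, whose share was highest in 2-week mouse 2. Its part in the other differences between time points was not tested. Atf3 stood at 235 CPM in sub-cluster 4 and 43.8 CPM in sub-cluster 2, both with RNA of other cell types, against 7.42 and 13.7 CPM in sub-clusters 0 and 1. Without sub-clusters 2, 4 and 5 its log2 fold change was -2.70, and without cells holding a marker UMI of other types -1.60.

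The genes with the smallest p values among those of at least 10 CPM and without overlap were led, on the higher side, by genes of other cell types. Pga5, a pepsinogen gene of gastric chief cells, stood at 33.6, 28.0, 316 and 183 CPM (3.07 ± 0.27, adjusted p = 0.115), and Tff2, a trefoil peptide gene of mucous neck cells, at 434, 515, 2001 and 2215 CPM (2.22 ± 0.22, adjusted p = 0.126). Both were also higher in both 4-week mice in B cells, where Tff2 stood at 447 and 388 CPM at 2 weeks and 1388 and 1958 CPM at 4 weeks. Without the sub-clusters led by RNA of other cell types, the log2 fold change of Tff2 was 1.04 and that of Pga5 was 1.57. Next came Il4i1, an amino acid oxidase gene of immune cells (3.55 ± 0.55), the hormone gene Ppy (2.02 ± 0.35) and the transcript AY036118 (1.09 ± 0.20). On the lower side were Hspa1a, the transcript Gm26532 (-1.18 ± 0.21), the platelet and macrophage chemokine gene Pf4 (-2.62 ± 0.48), Atf3 and the sulfate transporter gene Slc26a2 (-1.75 ± 0.36). Slc26a2 had an adjusted p of 0.984. Pf4 stood at 239 CPM in sub-cluster 4 against 1.14 and 0.43 CPM in sub-clusters 0 and 1, and Il4i1 at 139.8 CPM against 0.57 and 0.86 CPM. Without the sub-clusters led by RNA of other cell types, neither Pf4 nor Il4i1 was tested. Macrophage genes as a list had a median log2 fold change of -1.01, with 4 of 9 lower in both 4-week mice and 0 higher in both, and summed to 1310 and 541 CPM at 2 weeks and 444 and 504 CPM at 4 weeks. With cells holding a marker UMI of other types left out, that median was 0.18. The macrophage markers Ptprc and C1qa are among the genes by which those cells were left out, so this shift was partly fixed in advance. The part of macrophage RNA in these differences was not tested.

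Interferon-stimulated genes stood apart in 2-week mouse 1. These genes are switched on when interferons activate a complex of transcription factors that binds a promoter sequence called the interferon-stimulated response element. Isg15, which encodes a ubiquitin-like antiviral protein, stood at 1473, 48.8, 97.8 and 136 CPM. Ifit1, whose product binds foreign RNA, stood at 361, 16.9, 40.6 and 73.8 CPM, the antiviral enzyme gene Rsad2 at 116, 1.08, 19.8 and 23.5 CPM and Cxcl10, a chemokine gene that attracts T cells, at 331, 1.08, 28.1 and 1.12 CPM. In each of these genes 2-week mouse 1 was above the other 3 mice, and in Isg15, Ifit1 and Rsad2 the lowest value was in 2-week mouse 2. Summed over the list, which does not hold Cxcl10, the level was 12408 and 1109 CPM at 2 weeks and 2737 and 2469 CPM at 4 weeks. Of 20 genes tested, 0 were at an unadjusted p under 0.05 for time, and the median log2 fold change of -1.33 became 1.14 without 2-week mouse 1.

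The promoters of these genes are shown because the genes were high together in 1 mouse. Each line gives the 250 bases before the annotated start, 5′ to 3′ on the gene's strand, from RefSeq (GRCm38.p6). Capitals mark matches to GAAANNGAAA, a form of the response element, on either strand (TTTCNNTTTC where it lies on the other strand); matches may overlap.
Isg15: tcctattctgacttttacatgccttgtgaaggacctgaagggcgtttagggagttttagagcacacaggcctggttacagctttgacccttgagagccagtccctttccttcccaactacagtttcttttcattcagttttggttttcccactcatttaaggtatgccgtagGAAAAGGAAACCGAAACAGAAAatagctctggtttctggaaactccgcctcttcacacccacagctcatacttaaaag
Ifit1: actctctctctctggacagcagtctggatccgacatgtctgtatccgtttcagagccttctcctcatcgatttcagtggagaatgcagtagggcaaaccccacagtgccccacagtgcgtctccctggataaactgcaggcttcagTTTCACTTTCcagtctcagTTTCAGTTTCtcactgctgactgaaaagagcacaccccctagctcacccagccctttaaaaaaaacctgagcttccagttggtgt
Rsad2: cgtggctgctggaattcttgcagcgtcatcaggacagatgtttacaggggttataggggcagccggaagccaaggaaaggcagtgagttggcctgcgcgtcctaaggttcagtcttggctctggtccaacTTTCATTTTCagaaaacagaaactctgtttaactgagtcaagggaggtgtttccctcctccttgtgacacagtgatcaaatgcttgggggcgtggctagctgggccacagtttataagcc
Cxcl10: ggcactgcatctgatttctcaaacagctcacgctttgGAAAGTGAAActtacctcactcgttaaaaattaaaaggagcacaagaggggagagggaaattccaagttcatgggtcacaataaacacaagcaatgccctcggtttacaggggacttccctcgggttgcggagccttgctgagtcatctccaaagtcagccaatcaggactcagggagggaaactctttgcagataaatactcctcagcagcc
The windows lie at chr4:156200819-156201068 (minus strand), chr19:34640639-34640888 (plus strand), chr12:26456453-26456702 (minus strand) and chr5:92348890-92349139 (minus strand). Isg15 had 3 overlapping matches between 78 and 57 bases before the start, and Ifit1 had 2 between 104 and 76 bases before it. Rsad2 had 1 match, beginning 120 bases before the start, and Cxcl10 had 1, beginning 213 bases before it. Of the 21 genes of the list, which does not hold Cxcl10, 18 had a window, and 10 of these held a match. Among all genes with a window 3.46% held one, and among all windows of this length 2.98%. In the other lists searched, a match was found for 3 of 12 chemokine genes, 1 of 12 complement and acute phase genes, 0 of 3 fibrillar collagen genes and 0 of 12 contractile genes. A match describes these letters only.

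The high level in 2-week mouse 1 was shared by other cells of the same mouse. The list summed to 15750 CPM in mesothelial cells of that mouse, 11419 in endothelial cells and 9189 in macrophages, against at most 6687, 2961 and 3386 CPM in the same classes of the other mice. In B cells it stood at 2839 CPM in 2-week mouse 1 and at 1485 to 2274 CPM in the others. Macrophage markers were also highest in the fibroblasts of that mouse, summing to 941 and 275 CPM at 2 weeks and 293 and 259 CPM at 4 weeks, with 6 of 6 markers found in every mouse. Antigen presentation genes were also highest in that mouse, at 8014 and 1827 CPM at 2 weeks and 5586 and 5152 CPM at 4 weeks, with 0 of 10 genes at an unadjusted p under 0.05. With cells holding a marker UMI of other types left out, the median log2 fold change of the interferon list was -1.12. H2-Ab1, the class II gene of antigen-presenting cells, had a UMI in 11.9% of fibroblasts and in 99.3% of B cells.

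**Figure D4:**
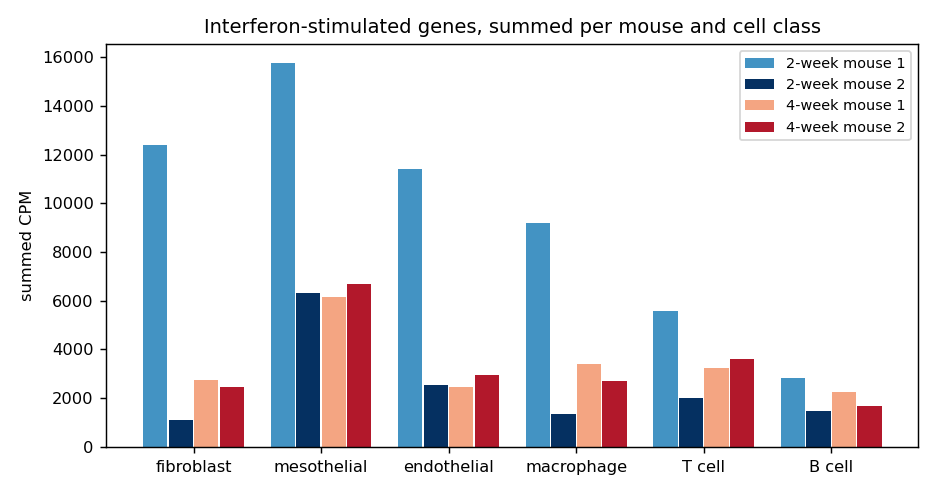
Summed level of the interferon-stimulated genes, in CPM, in 6 cell classes of each of the 4 mice; each bar is 1 mouse and class. Bars of 2-week mouse 1 are the highest in every class, 12408 CPM in fibroblasts against 1109 to 2737 CPM in those of the other mice.

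The 6 sub-clusters of the 764 cells are described without tests since they were made from the same counts. Sub-cluster 1 was the largest, with 292 cells (28, 174, 65 and 25 in the 4 mice), and its leading genes were Chodl, Tnc, Tbx2, Cpxm2, Cxcl14, Acta2, Tagln, Fgl2, Thbs4 and Inhba. It held Cxcl14 at 1196 CPM and the Hedgehog receptor gene Ptch1 at 140.3 CPM. Sub-cluster 0 had 189 cells (19, 66, 58 and 46). Its leading genes were Ctla2a, Sult1e1, Mmp3, Sbsn, Vit, Sema3c and Sfrp4, beside the immunoglobulin genes Ighg2b, Igkc and Jchain. Mmp3 had a UMI in 12.7% of the cells. It stood at 237 CPM in 2-week mouse 2, against 6.12 CPM in 2-week mouse 1 and 74.8 and 52.6 CPM in the 4-week mice. Sub-cluster 0 held C3 at 5329 CPM and Dpt at 1591 CPM, against 700.2 and 142 CPM in sub-cluster 1. Contractile genes summed to 1154 CPM in sub-cluster 0 and to 2676 CPM in sub-cluster 1. Pooled over mice, Col1a1 stood at 4210 and 4578 CPM in sub-clusters 0 and 1. Within mice it was higher in sub-cluster 1 in all but 2-week mouse 2. The values in sub-clusters 0 and 1 were 2260 and 5807 CPM in 2-week mouse 1 and 5960 and 4392 CPM in 2-week mouse 2. They were 2135 and 4337 CPM in 4-week mouse 1 and 3669 and 4909 CPM in 4-week mouse 2.

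The contrast between the 2 sub-clusters held within mice for some genes. Dpt was higher in sub-cluster 0 than in sub-cluster 1 in 4 of 4 mice (2339 against 361 CPM in 2-week mouse 1 and 1174 against 116 CPM in 4-week mouse 2), and so was Sema3c, a secreted guidance protein gene. Cxcl14 was higher in sub-cluster 1 in 4 of 4 mice, as was Tagln. Pooled over mice, Pi16 stood at 1077 CPM in sub-cluster 0 and 804 CPM in sub-cluster 1. Within mice it was higher in sub-cluster 1 in all but 2-week mouse 2. In sub-clusters 0 and 1 it stood at 1261.5 and 1505 CPM in 2-week mouse 1 and 715 and 410 CPM in 2-week mouse 2. It stood at 1204 and 1346 CPM in 4-week mouse 1 and 1647 and 1850 CPM in 4-week mouse 2.

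Sub-cluster 3 had 68 cells, 65 of them from 2-week mouse 1, and was led by Cxcl10, Rsad2, Ifit3b, Ifit3, Iigp1, Cxcl9, Ccl7, Isg15, Ifit1 and Gbp4. Since 1 mouse supplied nearly all of it, a cell state and that mouse cannot be told apart. The interferon list also stood above the other mice in 2-week mouse 1 outside this sub-cluster, at 4556 CPM in sub-cluster 0 (1670 to 2941 CPM in the others) and 3350 CPM in sub-cluster 1 (943 to 2742 CPM). Adventitial genes summed to 21007 CPM in sub-cluster 3.

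The other sub-clusters carried RNA of other cell types and stay unnamed. Sub-cluster 2 (172 cells) had a median of 2279.5 UMIs, 0.31 of the median of the cells' own mice, and was led by the hormone genes Pyy and Sst and by acinar genes such as Clps and Cela2a, with acinar enzymes at 152013 CPM against 9376 CPM in sub-cluster 0. Sub-cluster 4 (30 cells from all 4 mice) was led by Cd74, C1qa and class II genes, which macrophages express. Sub-cluster 5 had 13 cells, all from 2-week mouse 2, and was led by Rgs5, Notch3 and Higd1b, genes of pericytes, with Dcn at 9.94 CPM. No doublet caller was run, and the part of doublets in these sub-clusters was not tested.

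**Figure D5:**
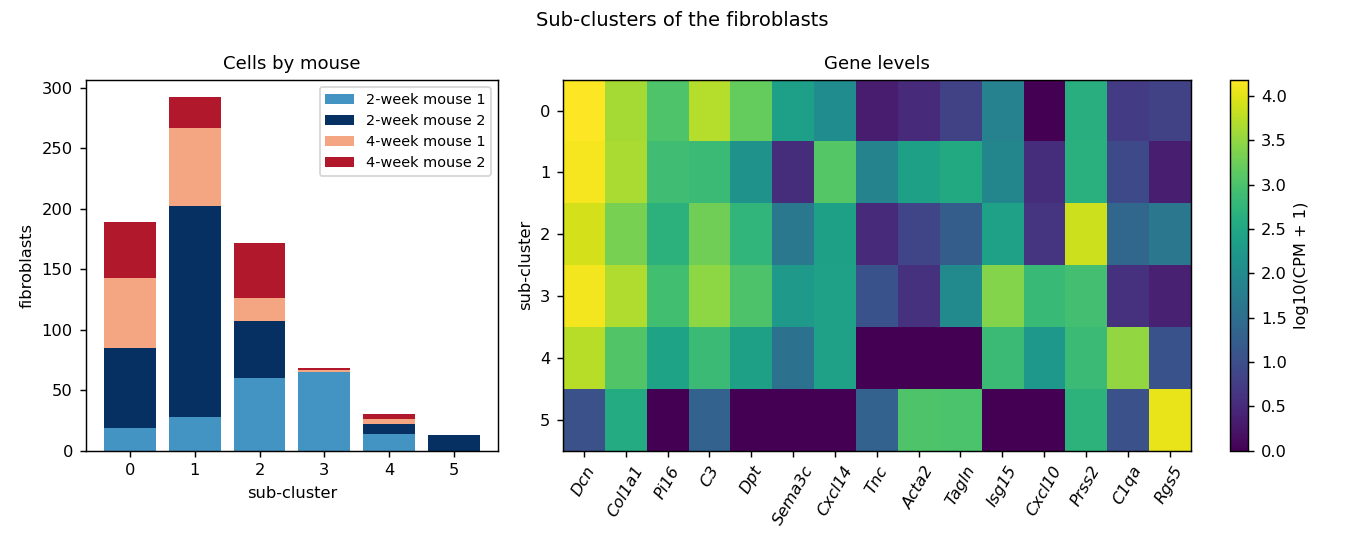
Left, number of fibroblasts in each sub-cluster, coloured by mouse. Right, levels of 15 genes per sub-cluster as log10(CPM + 1). Dcn and Col1a1 are high in sub-clusters 0 to 3, Acta2 is highest in sub-cluster 5 and next in sub-cluster 1, and 65 of the 68 cells of sub-cluster 3 come from 2-week mouse 1.

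Mesothelial cells, the lining cells that share many matrix genes with fibroblasts, were the comparison class for the time effect. There were 23 and 27 of them at 2 weeks and 34 and 25 at 4 weeks. Fibrillar collagens other than the rule genes summed to 170.0 and 174 CPM in them at 2 weeks and 109 and 103 CPM at 4 weeks, against 1300.0 and 1129 CPM and then 1018.5 and 882 CPM in fibroblasts. Both classes were lower in both 4-week mice. The difference of the time effect between the classes was tested with mouse as a block in 8493 genes, and edgeR called 0 (0.0%), with 234 at an unadjusted p under 0.05 (2.76%). DESeq2 also called 0, and 28 of its genes were at an unadjusted p under 0.05. Without 2-week mouse 1 edgeR called 34 genes, without 2-week mouse 2 it called 23 and without the low-count filter 7, so the count depends on these settings.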

How the data were processed

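Pancreas cells of 4 mice (2 given caerulein for 2 weeks, 2 for 4 weeks) were measured by 10x Genomics 3′ single-cell RNA sequencing. The authors deposited raw UMI counts per gene and cell, unnormalized, in a merged table and in a table of EYFP-positive cells; Cell Ranger 4.0.0, Seurat 3.2.3 and the mouse build mm10 are named in the submitters' processing notes. The authors' deposited cell type labels were used only to find which cells are EYFP-positive. Every deposited cell held at least 1000 UMIs, with up to 6.00% mitochondrial UMIs. Mice were read from the name that ends each cell name, and 0 columns of values were left unused.

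UMIs were summed per mouse over the fibroblasts and compared with edgeR 4.0.16 in R 4.3.3 (quasi-likelihood, robust, TMM, filterByExpr, Benjamini-Hochberg at 0.05, two-sided). DESeq2 1.42.0 was the alternative. The mouse is the replicate, n = 2 per time point. The fits were checked on simulated data, in which 200 genes differed 4-fold at 1 common spread. The time fit recovered 173 with 11 false calls among 9568 genes, and the interaction fit recovered 100 with 4 false calls among 8675 genes. The changed genes were drawn from well-counted ones, and real genes do not share 1 spread. These counts therefore do not give the share of real changes that the fits would find. Sub-clusters were made with scanpy 1.11.5 by Leiden clustering at resolution 0.3, a value chosen after the cells were seen, from 1500 variable genes, 20 components and 15 neighbours per cell. Other classes needed markers of their own type, 2 of the 3 mesothelial genes for mesothelial cells. Shares were compared with an exact permutation test. To compare depths, cells were thinned to 1500 UMIs. No doublet caller was run. 

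The members, gene lists and tests were chosen with earlier results of these data known. The genes of the cell rule were left out of the counts, sums and medians of all other lists. Genes of 40 lists may be named; beyond them, up to 5 genes per direction of at least 10 CPM without overlap by smallest p, the 20 genes with the highest ratio to other cells among those of at least 50 CPM, and the top 10 genes by fold of a sub-cluster. Promoter sequences are from RefSeq (GRCm38.p6), matched by symbol.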

Additional observations from a re-analysis of the deposited data

Results flagged for a closer look

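Among the 13362 cells of the EYFP-positive table, which no comparison above uses, 73 met the same gene rule for fibroblasts. They held a median of 6 UMIs of the 5 rule genes, against 256 in fibroblasts with all 5 genes and 6.5 in fibroblasts with 3 of them. Whether these cells are doublets, carry free RNA or express the genes was not tested.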

How the results depend on the processing

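Of 15 alternatives, 10 called 0 genes for time, as the reported fit did. DESeq2 called 5 genes and omitting the low-count filter 53. Leaving out 1 mouse gave between 0 and 144 calls (127 without 2-week mouse 1, 144 without 2-week mouse 2, 0 and 1 without a 4-week mouse). The difference of the time effect from mesothelial cells gave 7 calls without the low-count filter and 0 to 34 calls with 1 mouse left out. The difference in share was -2.41 points of all cells, -7.33 under the stricter cell rule, and -12.1 to -4.53 with 1 mouse left out, where the smallest possible p is 0.667. All 50 genes given with a fold change kept their sign in every alternative that tested them. They were chosen from these same mice by small p or no overlap. The kept sign was therefore largely fixed in advance, and nothing is read from it. Il4i1 and Pf4 were not tested without sub-clusters 2, 4 and 5. Il4i1, Pf4 and Ccl5 were not tested without cells holding a marker UMI of other types. Of the 50 genes, 14 passed the threshold without the low-count filter, a fit in which 53 of 17442 genes passed. With DESeq2 2 of them passed, among 5 of 17442 genes. Since the 50 genes were chosen from the same mice, these counts are not read as a result about them. Of 29 list medians, 21 turned sign in at least 1 alternative, 8 of them within 0.1 of 0 as reported. The other 13 were interferon genes (1.14), chemokines (0.82), antigen presentation (1.39), NF-kB targets (0.07) and activated myofibroblast genes (-0.08) without 2-week mouse 1, contractile (0.11), stellate (0.24) and pericyte genes (0.85) without 2-week mouse 2, acinar enzymes (-1.32) and small leucine-rich proteoglycans (-0.05) without 4-week mouse 2, ductal and epithelial genes (-0.28) without sub-clusters 2, 4 and 5, and macrophage genes (0.18) and basement membrane and sheet-forming collagens (0.00011) without cells holding a marker UMI of other types. A single setting is printed per list. The one printed for macrophage genes leaves out cells by macrophage markers among others, so that turn was partly fixed in advance. Medians of chemokines, acinar enzymes, pericyte genes and activated myofibroblast genes, among others, also turned in further settings. The cause was not tested in any case. Thinned to 1500 UMIs, which left out 72 of 764 cells, cells with an Acta2 UMI were 2.77% in place of 6.81%, with a Pdgfra UMI 37.4% in place of 71.1% and with a C3 UMI 62.5% in place of 73.7%. No paired analysis was possible because the labels give different animals at the 2 time points, with no replicate numbers and no link across time points.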

Other observations

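Genes of lipid and retinoid handling were expressed in all mice, with Lpl varying most among the 3 named here. Apoe stood at 2613, 3055, 2745 and 2460.3 CPM, the lipoprotein lipase gene Lpl at 1746, 866, 1513 and 1152 CPM and Rarres2, which encodes the chemoattractant chemerin, at 902, 693, 908 and 871 CPM. Of 8 genes of that list tested, 0 were at an unadjusted p under 0.05. The neuropeptide precursor gene Penk stood at 598, 604, 425 and 1071 CPM and had a UMI in 70.2% of fibroblasts against 0.722% of B cells. Among cell cycle arrest genes, Cdkn1c, a cyclin-dependent kinase inhibitor gene, stood at 401, 444, 309 and 269.5 CPM and was lower in both 4-week mice, and Glb1, the lysosomal galactosidase gene, stood at 31.5, 26.5, 45.8 and 41.4 CPM and was higher in both.

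As a sign of RNA quality, mitochondrial UMIs took a median of 1.47%, 1.42%, 1.34% and 1.49% of the UMIs of a fibroblast in 2-week mice 1 and 2 and 4-week mice 1 and 2.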
